A study of Mus musculus with 24 samples.

Results

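The mitochondrial ribosome makes the few oxidative phosphorylation subunits that the mitochondrial genome encodes, and nearly all of its proteins are made from nuclear genes and imported. The genes described here are the protein-coding mouse genes whose symbol begins with Mrpl (large subunit) or Mrps (small subunit) followed by a number. There were 78 of them among the 55487 genes listed, 49 of the large and 29 of the small subunit by symbol, and all 78 passed the filter on low values. The large subunit holds the peptidyl transferase centre and the exit tunnel, the small subunit decodes the messenger RNA, and each is built on an RNA encoded by the mitochondrial genome. Some of the proteins have counterparts in bacterial ribosomes and others are found only in mitochondria. In muscle, mitochondrial content is known to follow contractile activity.

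Poly-adenylated RNA was sequenced from the gastrocnemius, a calf muscle of mostly fast fibres, of 24 male C57BL/6J mice labelled as 12 weeks old, with 1 library per mouse and 8 in each of 3 groups. The first group had both hindlimbs casted and was injected intraperitoneally with MOTS-c, 15 mg/kg/day given as 2 injections; this peptide is encoded inside the small ribosomal RNA gene of the mitochondrial genome. The second group was casted and received water on that schedule, and the third received water and was not casted. Casting and injections lasted 8 days. The groups are called casted with MOTS-c, casted and uncasted below. No group received MOTS-c without a cast, so an effect of the peptide on muscle at normal use was not measured.

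Values are TPM, a length-corrected share of the library's transcripts, scaled between libraries so that the middle of all genes lines up. Each sample's TPM have a fixed total, so depth is unknown and no counting interval can be given. A call is a limma adjusted p under 0.05 over all 14690 genes tested, and log2 fold changes are on the log2(scaled TPM + 1) scale. The scale sets much of what follows. The median of all genes differed by 0.39 (log2, casted minus uncasted) on the deposited TPM and by 0.01 on the scaled values, so the main counts of calls are given on both scales. Muscle fibre markers summed to 54260 to 92940 scaled TPM in casted with MOTS-c, 51070 to 77840 in casted and 108200 to 123000 in uncasted libraries, with 6 of 7 lower and 1 higher with casting. Macrophage markers summed to 59.99 to 127.8, 47.6 to 118.2 and 32.03 to 44.53 scaled TPM in the same groups, with 3 of 5 higher with casting. Both neutrophil markers were higher and 4 of 4 endothelial markers lower with casting, and no marker was at 0 in every library. The part of these cell types in the changes below was not tested. Casted replicates 1 to 4 and 5 to 8 differed as sets against the libraries with MOTS-c, and counts with each set alone are given for both comparisons. One library stood apart from its group: on the first principal component of log2 scaled TPM, replicate 5 of casted with MOTS-c lay at -17.81, against 13.71 to 29.60 for the other 7 and -40.93 to -39.73 for uncasted libraries, so it lay towards uncasted muscle. Its scaling factor was 0.89, against 1.05 to 1.21 for the other 7. On the same component casted replicates 1 to 4 lay at 6.39 to 25.81 and casted replicates 5 to 8 at 29.54 to 36.49, without overlap. In whole muscle, fewer cells of a type and less RNA per cell cannot be told apart.

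In uncasted muscle the transcripts differed widely in level although most of the proteins are present in equal number in a ribosome. TPM are corrected for length, which allows a rough comparison of levels between genes. Reads shared with near-copies or overlapping genes may still alter the levels of some members. The highest scaled TPM were those of Mrpl42, at 346 ± 24.4 (SD, n = 8), Mrps21, at 253 ± 29.8, and Mrpl30, at 173 ± 14.9. The lowest were those of Mrpl39, at 12.9 ± 0.953, Mrps30, at 13.2 ± 1.06, and Mrps2, at 14.6 ± 0.785. The highest mean level was 20.97 times the lowest among all members in casted with MOTS-c, 20.43 times in casted and 26.83 times in uncasted libraries. The median level was 39.7 scaled TPM for large and 36.9 for small subunit members in uncasted muscle.

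The first comparison asks what casting did to these transcripts. Casting did not move the mitochondrial ribosomal protein genes as a block. Relative to the middle of all genes, 34 of 78 members (43.6%) were lower and 11 (14.1%) higher in casted muscle, and 33 did not pass, while 27.7% of all genes tested were lower and 28.7% higher. The split turned round on the deposited TPM, with 6 members lower and 58 higher, where 7.43% of all genes were lower and 62.2% higher. The median member had a log2 fold change of -0.13 on the scaled and 0.38 on the deposited values, against 0.01 and 0.39 for all genes. The pseudocount of 1 damps the shift between the scales for low genes. The closeness of 0.38 to 0.39 therefore does not place the members at the middle of all genes. Fold changes spanned -1.04 to 0.74 on the scaled values, and 1 member, Mrps36, passed a doubling or halving.

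Calls made on both scales were 6 falls and 11 rises. Relative to the scaled values, the deposited TPM move genes upward with casting, by less for low genes because of the pseudocount. A rise on the scaled values was thus nearly bound to be called there too, and agreement of the rises adds no support. The 6 members lower on both were Mrps36, Mrpl18, Mrps11, Mrpl42, Mrpl34 and Mrpl12. The 11 higher on both were Mrps30, Mrpl57, Mrps18c, Mrpl32, Mrps2, Mrps18b, Mrpl17, Mrps18a, Mrpl35, Mrps34 and Mrps10. Of the other members lower on the scaled values, 14 were called higher on the deposited TPM and 14 were not called. All 8 casted libraries lay below all 8 uncasted libraries for 17 members (21.8%), where 10.9% of all genes did so, and above them for 3 members (3.8%), Mrps30, Mrpl57 and Mrpl17, where 11.5% of all genes did so. All 8 casted libraries gave 4223 of all 14690 genes higher and 4074 lower. With only casted replicates 1 to 4 these were 3037 and 2914, and 8 members were higher and 31 lower. Mrps2, Mrps18b, Mrpl35 and Mrps10 then lost their rises and Mrps5, Mrps16, Mrps21 and Mrps31 their falls, while Mrpl20 was called higher and Mrps35 lower. With only replicates 5 to 8, 15 members were higher and 29 lower, where 4185 of all genes were higher and 4070 lower. No rise was lost there, Mrpl3, Mrpl4, Mrpl37, Mrpl45, Mrps5, Mrps27 and Mrps31 lost their falls, Mrpl9, Mrpl15, Mrpl38 and Mrpl41 were called higher and Mrpl52 and Mrps24 lower.

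**Figure D1:**
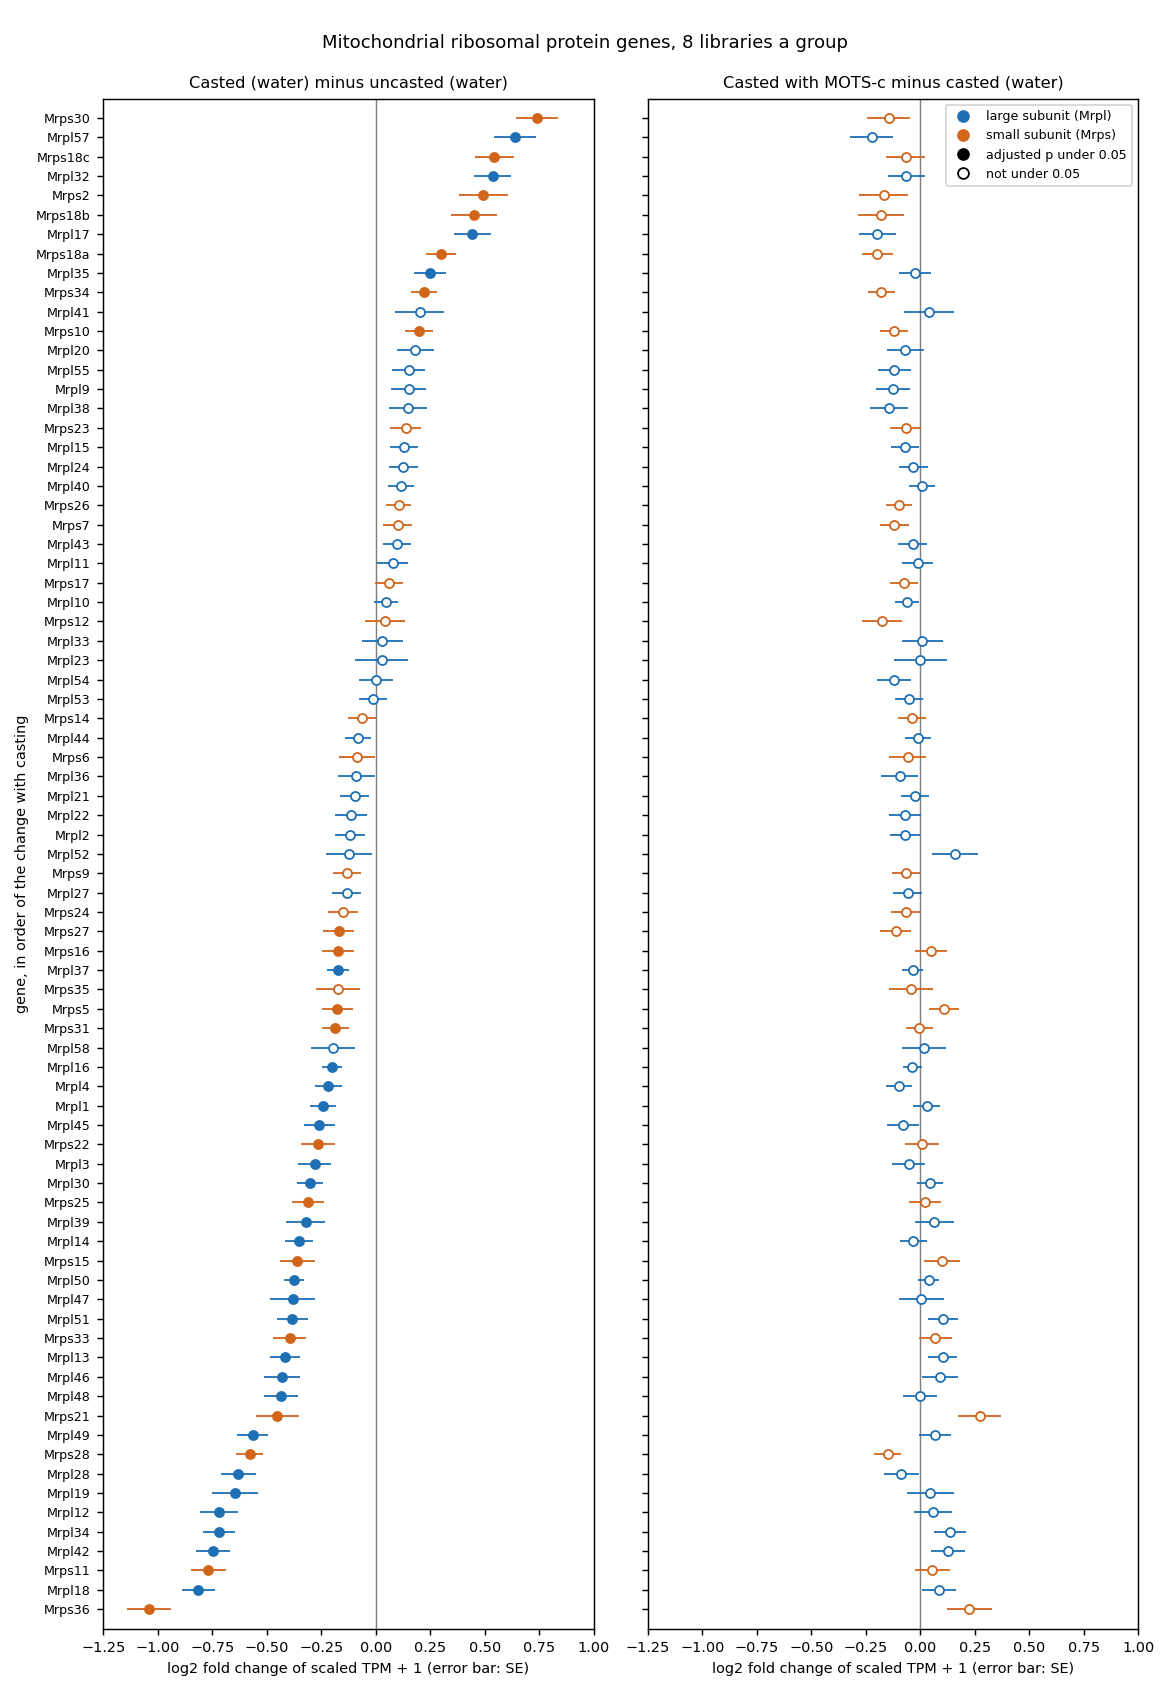
Log2 fold change of scaled TPM + 1 (x axis, bars are standard errors) for each of the 78 genes, in order of the change with casting, with 8 libraries a group; blue marks large and orange small subunit genes, and filled points have a limma adjusted p under 0.05. With casting 34 members lie below 0 and 11 above it among the filled points (6 and 58 on the deposited TPM), whereas no member is filled for MOTS-c in casted muscle.

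The deepest fall was that of Mrps36. It carries a ribosomal name from early preparations but is known as an adaptor subunit of the mitochondrial 2-oxoglutarate dehydrogenase complex, a citric acid cycle enzyme, and is absent from structures of the ribosome. Scaled TPM were 35.9, 47.3 and 56.7 (lowest, median, highest of 8) in casted with MOTS-c, 30.2, 39.3 and 51.7 in casted and 72.5, 79.0 and 99.8 in uncasted libraries. Every casted library of either kind lay below every uncasted one. The log2 fold change of casted over uncasted was -1.04 ± 0.10 (SE; limma adjusted p = 9.838e-09) and -0.53 on the deposited TPM. Processed pseudogenes nearly identical to Mrps36 are listed at lower TPM, Mrps36-ps1 at 10.6% of its level. With near-copies added to it the log2 fold change was -0.98 (limma adjusted p = 8.021e-08).

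The falls in the large subunit touched parts with different roles. Mrpl18, a protein of the central protuberance, had scaled TPM of 41.7, 48.6 and 56.9 (lowest, median, highest) in casted and 76.6, 87.1 and 99.2 in uncasted libraries, with a log2 fold change of -0.81 ± 0.08 (limma adjusted p = 4.966e-09). Mrpl12, the stalk protein that contacts translation factors, had 36.5, 43.8 and 55.4 in casted and 65.0, 72.2 and 96.1 in uncasted libraries (log2 fold change -0.72 ± 0.09, limma adjusted p = 1.955e-07). For both genes the casted and uncasted libraries did not overlap. The stalk base proteins that hold Mrpl12 gave other values: Mrpl10 averaged 23.4 ± 1.97 scaled TPM in casted and 22.6 ± 1.30 in uncasted libraries, and Mrpl11 58.2 ± 5.51 and 55.1 ± 5.90 (SD, n = 8 each). Their log2 fold changes were 0.05 (95% interval -0.07 to 0.16) and 0.08 (-0.07 to 0.23), which did not pass on the scaled values, and 0.54 and 0.59 on the deposited TPM, which did. Mrpl42, a protein found only in mitochondria and the most abundant of these transcripts, averaged 206 ± 20.7 in casted and 346 ± 24.4 in uncasted muscle, without overlap (log2 fold change -0.75 ± 0.08, limma adjusted p = 1.973e-08). Mrpl34, the counterpart of a small bacterial large-subunit protein, averaged 24.5 ± 2.63 in casted and 41.0 ± 4.09 in uncasted muscle, also without overlap (log2 fold change -0.72).

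Mrpl19 and Mrpl28, both of bacterial type, completed the 8 largest falls. Mrpl19 averaged 12.3 ± 2.03 in casted and 19.8 ± 2.66 in uncasted libraries, with a slight overlap, and Mrpl28 23.9 ± 3.21 and 37.5 ± 3.73 without one. Their deposited TPM gave log2 fold changes of -0.16 and -0.13 and limma adjusted p of 0.1747 and 0.09836, and neither fall was called there.

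Mrps11, a small-subunit protein of bacterial type, and Mrpl46, of the large subunit, are encoded head to head on chromosome 7, and their gene spans overlap by 413 bases. Mrps11 had scaled TPM of 9.11, 11.4 and 13.6 (lowest, median, highest) in casted and 17.5, 19.5 and 21.5 in uncasted libraries, with a log2 fold change of -0.77 ± 0.08 (limma adjusted p = 2.749e-08). Mrpl46 averaged 12.3 in casted and 16.9 in uncasted muscle, with a log2 fold change of -0.43 ± 0.08 (limma adjusted p = 9.684e-05). Neither gene had overlapping groups on the scaled values. Mrps11 kept its fall on the deposited TPM, at -0.28, whereas Mrpl46 had 0.05. The sources used here do not say whether counting used strand, so reads from the overlapping stretch cannot be assigned to either gene. The same holds for genes on the opposite strand that overlap other members. Among these members are Mrpl18 (Tcp1), Mrpl19 (Gcfc2), Mrps30 (B430218F22Rik), Mrps18a (Rsph9), Mrps18b (Gm16279) and Mrpl17 (Gm15645).

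Against this background, a smaller number of members rose. These were also called on the deposited TPM, whose upward shift of all genes favours rises. Mrps30 rose most. Despite its name, the protein sits in the large subunit, and its transcript is among the scarcest of the set in uncasted muscle. Scaled TPM were 14.2, 20.1 and 25.7 (lowest, median, highest) in casted with MOTS-c, 16.6, 23.7 and 27.1 in casted and 11.8, 12.9 and 15.3 in uncasted libraries. The casted libraries all lay above the uncasted ones, and the log2 fold change was 0.74 ± 0.10 (limma adjusted p = 6.258e-07).

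Mrpl57, a mitochondrion-specific large-subunit protein, had 33.3, 49.4 and 55.8 scaled TPM in casted with MOTS-c, 48.5, 53.3 and 73.4 in casted and 31.7, 34.2 and 43.8 in uncasted libraries. Casted and uncasted libraries did not overlap (log2 fold change 0.64 ± 0.10, limma adjusted p = 5.614e-06). Mrpl32, a bacterial-type protein that in yeast and mouse is cleaved by the m-AAA protease before it joins the ribosome, averaged 71.7 ± 8.68 in casted and 49.0 ± 4.66 in uncasted muscle (log2 fold change 0.54 ± 0.08, limma adjusted p = 7.355e-06). The groups overlapped only slightly, the lowest casted library being at 57.4 and the highest uncasted one at 58.3. Mrpl17, of bacterial type, averaged 84.4 ± 11.9 in casted and 61.4 ± 3.56 in uncasted muscle, without overlap (log2 fold change 0.44). Mrps2, a small-subunit protein of bacterial type, averaged 21.3 ± 3.71 in casted and 14.6 ± 0.785 in uncasted muscle (log2 fold change 0.49 ± 0.11, limma adjusted p = 0.0005774), with a narrow overlap. Against uncasted libraries, casted replicates 1 to 4 alone gave Mrps2 a log2 fold change of 0.31 (limma adjusted p = 0.06265).

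All 3 genes of the Mrps18 family, which share descent from the bacterial S18 protein, rose. Mrps18c averaged 74.7 ± 10.5 scaled TPM in casted and 50.9 ± 6.84 in uncasted libraries (log2 fold change 0.54 ± 0.09, limma adjusted p = 1.454e-05). Mrps18b averaged 60.6 ± 8.87 in casted and 43.7 ± 2.10 in uncasted libraries (log2 fold change 0.45 ± 0.10, limma adjusted p = 0.000694), and 0.31 with casted replicates 1 to 4 alone (limma adjusted p = 0.05502). Mrps18a averaged 74.4 ± 7.35 in casted and 60.2 ± 5.40 in uncasted libraries (log2 fold change 0.30 ± 0.07, limma adjusted p = 0.0007862). In each of the 3 genes the casted and uncasted libraries overlapped. Mrps18b and Mrps18c belong to the small subunit, while the Mrps18a protein is found in the large one. Mrpl35, Mrps34 and Mrps10 made up the remaining rises, with log2 fold changes of 0.25, 0.22 and 0.20. With casted replicates 1 to 4 alone Mrpl35 had 0.22 (limma adjusted p = 0.06318) and Mrps10 0.18 (limma adjusted p = 0.0861). Mrps34 overlaps Nme3 on the same strand, and part of its reads may belong to that gene. Mrps18c likewise overlaps Gm43511, and Mrps6 overlaps Slc5a3, on the same strand.

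**Figure D2:**
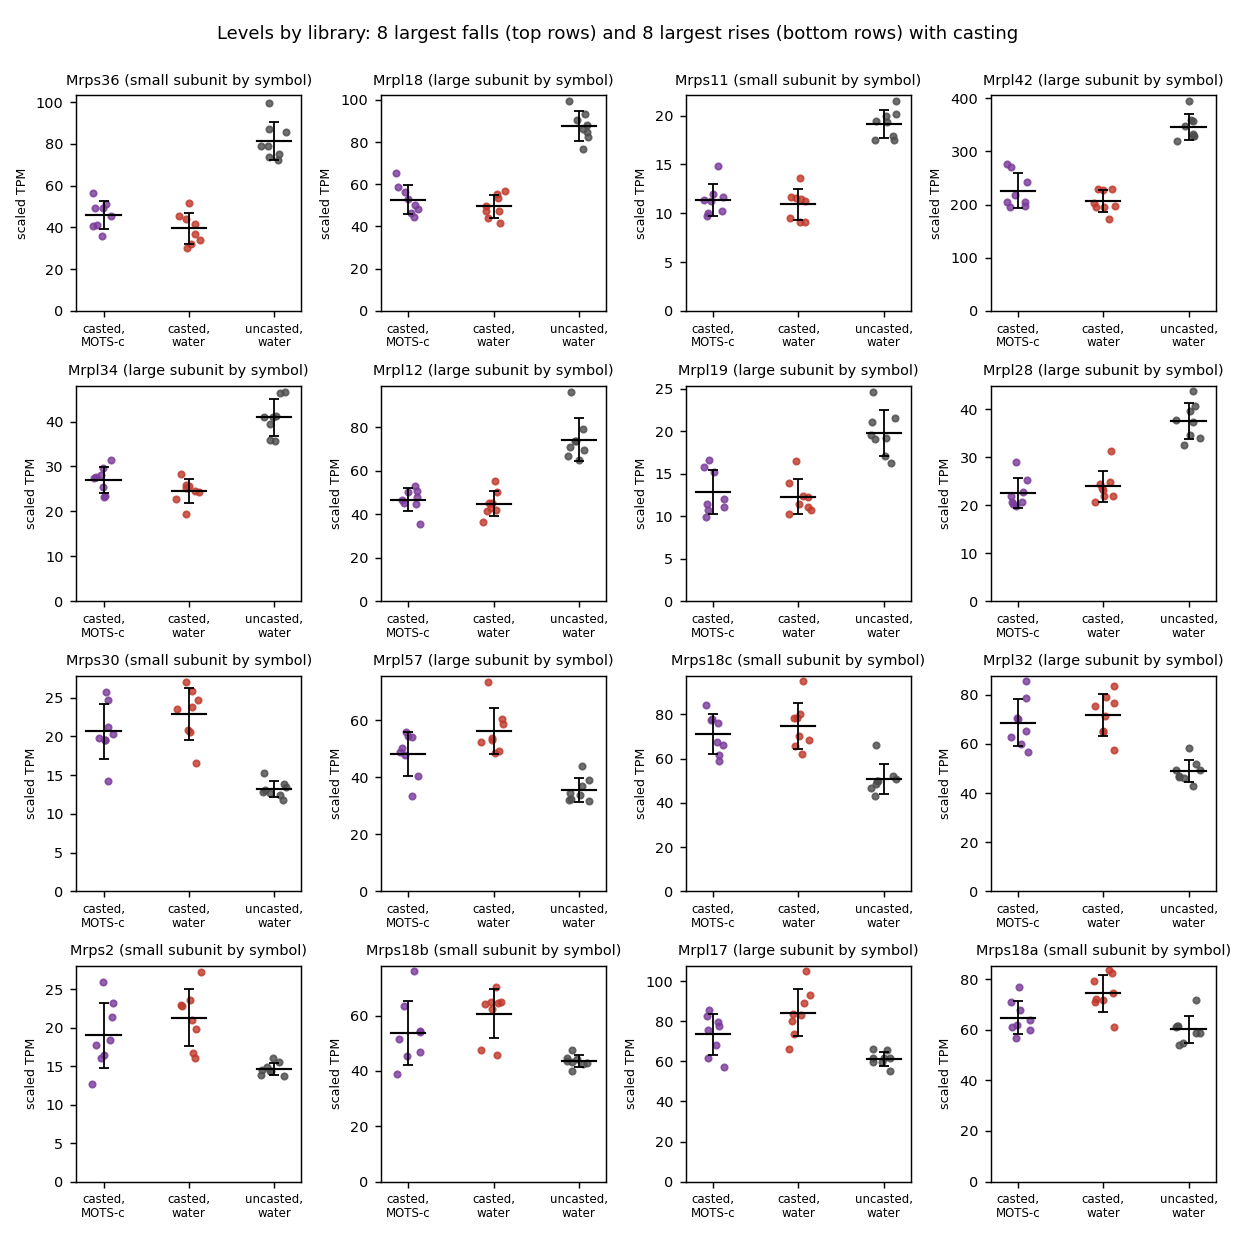
Scaled TPM (y axis, from 0) in each library for the 8 largest falls and the 8 largest rises with casting; points are libraries, bars are the mean and SD of 8, in the order casted with MOTS-c, casted with water and uncasted with water. Mrps36 averaged 39.5 in casted and 81.5 in uncasted libraries, and Mrps30 averaged 22.9 and 13.2. On the deposited TPM, where the upward shift of all genes favours rises, 6 of the falls and all 8 rises were also called.

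Of 7 further members named for their known roles, 5 did not pass on the scaled values. Mrpl58, which frees stalled ribosomes by hydrolysing peptidyl-tRNA, averaged 38.9 ± 3.62 in casted and 45.0 ± 6.44 in uncasted libraries (log2 fold change -0.20, limma adjusted p = 0.1011). Mrps12, a protein of the decoding centre, had a log2 fold change of 0.04, Mrps6 of -0.09, Mrpl44, an RNase III-like protein of the large subunit, of -0.08 and Mrpl41 of 0.20, none of which passed. Mrpl45, which lies near the tunnel exit and anchors the ribosome to the inner membrane, had a log2 fold change of -0.26 (limma adjusted p = 0.003851), and Mrps5, at the messenger RNA entry, of -0.18 (limma adjusted p = 0.03414). With casted replicates 5 to 8 alone Mrpl45 had -0.22 (limma adjusted p = 0.05274) and Mrpl41 0.35 (limma adjusted p = 0.02596). Mrps5 was not called with either set alone. Mrpl41 also passed without casted replicate 1 (log2 fold change 0.27), and Mrps5 did not pass without any single one of uncasted replicates 3, 4, 7 and 8 or casted replicates 1, 6 and 7 (-0.17 to -0.14). All of these 7 genes were higher in casted muscle on the deposited TPM, with log2 fold changes of 0.24 to 0.70, and all 7 were called.

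The subunits were then compared with each other. Of the 49 large-subunit members by symbol, 22 were lower (44.9%) and 4 higher (8.2%), with a median log2 fold change of -0.12. Of the 29 small-subunit members, 12 were lower (41.4%) and 7 higher (24.1%), with a median of -0.13. On the deposited TPM 36 large-subunit members were higher (73.5%) and 4 lower (8.2%), and 22 small-subunit members were higher (75.9%) and 2 lower (6.9%). Of all genes tested, 27.7% were lower and 28.7% higher on the scaled values, and 7.43% lower and 62.2% higher on the deposited TPM. The symbols misplace 3 genes, because Mrps18a and Mrps30 encode large-subunit proteins and Mrps36 is not a ribosomal protein. Placed by structure, 6 of 51 large-subunit members were higher and 22 lower, and 5 of 26 small-subunit members were higher and 11 lower (38 and 4, and 20 and 1, on the deposited TPM). Proteins of bacterial type (46 members, 6 higher, 19 lower, median -0.12) and mitochondrion-specific ones (32 members, 5 higher, 15 lower, median -0.17) gave 35 higher and 4 lower, and 23 higher and 2 lower, on the deposited TPM. The second class as counted here holds Mrps36, and also Mrps18a and Mrps18b, although their family descends from bacterial S18. The difference between the counts was not tested. Without casted replicate 1 there were 8 large-subunit members higher, and without uncasted replicate 8 there were 7.

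Within each library, the mean log2 level of large-subunit members minus that of small-subunit members does not depend on how libraries are scaled, apart from the pseudocount. By symbol this difference was 0.115 ± 0.029 in casted with MOTS-c, 0.0905 ± 0.021 in casted and 0.166 ± 0.016 in uncasted libraries (log2, SD, n = 8 each). Casted libraries ranged over 0.065 to 0.120 and uncasted ones over 0.140 to 0.187, so they did not overlap. With subunits by structure the difference was 0.125 ± 0.021, 0.107 ± 0.018 and 0.148 ± 0.019 in the same groups, and casted and uncasted libraries overlapped, with ranges of 0.088 to 0.135 and 0.114 to 0.169. The median over members, which was the measure planned, gave 0.123, 0.0985 and 0.0774, in another order and with wide overlap. The mean was chosen after the data were seen. The casted minus uncasted difference in the mean was -0.041 with the 3 genes placed by structure and -0.075 by symbol.

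**Figure D3:**
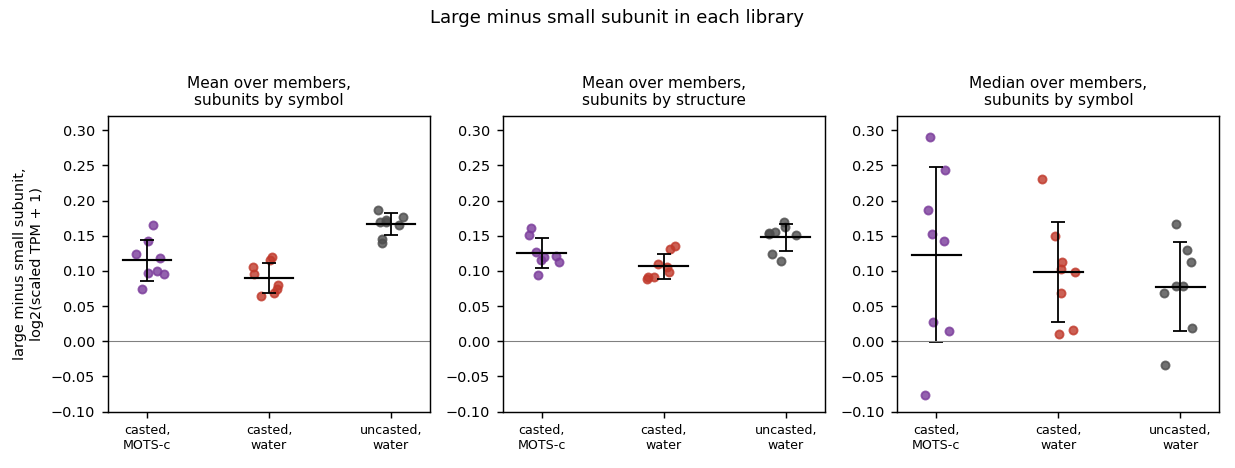
Large minus small subunit level in log2(scaled TPM + 1) (y axis) for each library, as a mean over members by symbol, a mean by structure and a median by symbol; points are libraries and bars the mean and SD of 8. The casted libraries lie at 0.065 to 0.120 and the uncasted ones at 0.140 to 0.187 in the first panel, and the groups overlap in the others. The median was the measure planned, and the mean was chosen after the data were seen.

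Summed over members, large-subunit transcripts amounted to 2414 ± 171 scaled TPM in casted with MOTS-c, 2430 ± 153 in casted and 2754 ± 215 in uncasted libraries (SD, n = 8 each), and small-subunit transcripts to 1301 ± 87.1, 1307 ± 75.4 and 1409 ± 113. As a share of the deposited TPM all members together made up 0.405% ± 0.043 in casted with MOTS-c, 0.429% ± 0.030 in casted and 0.333% ± 0.013 in uncasted libraries. The share of the whole was thus highest in casted muscle, while the sum relative to the middle of all genes was highest in uncasted muscle.

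**Figure D4:**
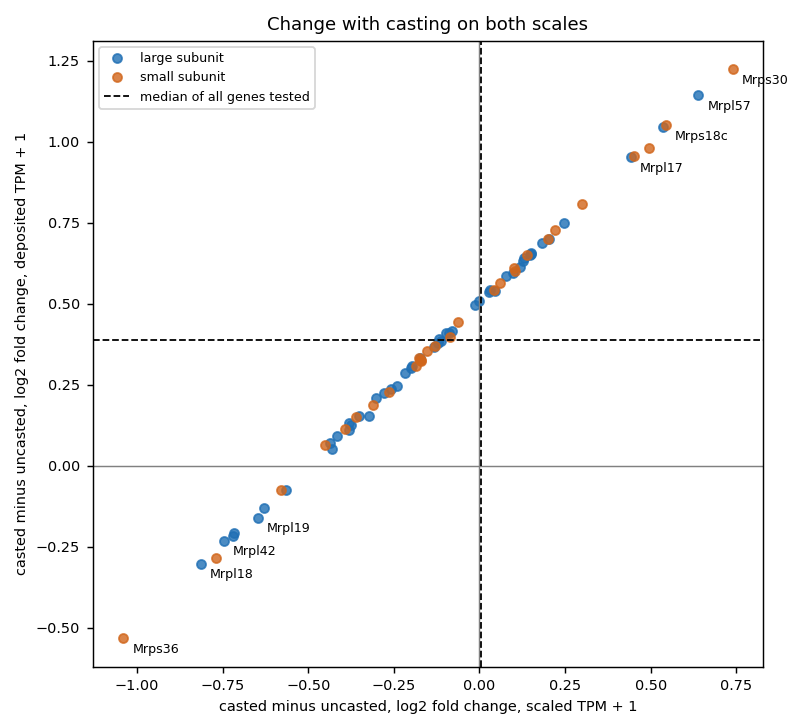
Log2 fold change of casted over uncasted on the scaled values (x axis) and on the deposited TPM (y axis) for each of the 78 genes, with dashed lines at the median of all genes tested, 0.01 and 0.39. The order of the genes is nearly the same on both scales, while the median member lies at -0.13 on the scaled and 0.38 on the deposited values.

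Genes around the mitochondrial ribosome were followed for comparison. The ribosome's own RNAs are captured by poly-A selection only so far as they carry tails, and those transcripts were lower in casted muscle: mt-Rnr2, the large-subunit RNA, averaged 1953 scaled TPM in casted and 4758 in uncasted libraries (log2 fold change -1.29 ± 0.11, limma adjusted p = 8.802e-10), and mt-Rnr1, the small-subunit RNA, 1128 and 2522 (log2 fold change -1.16 ± 0.12). Both were also lower on the deposited TPM, by log2 values of -0.77 and -0.65. Of 5 mitochondrial ribosomal proteins with other symbols, 3 were lower, Ptcd3 (-0.49), Chchd1 (-0.33) and Gadd45gip1 (-0.26), and Dap3 and Aurkaip1 did not pass. None of the 5 was lower and 4 were higher on the deposited TPM.

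Among 28 genes for ribosome assembly and ribosomal RNA modification 7 were lower (25.0%) and 6 higher (21.4%), beside 27.7% and 28.7% of all genes. On the deposited TPM 1 was lower and 21 were higher. The methyltransferase gene Mrm2 had the deepest fall, with a log2 fold change of -0.73 and -0.32 on the deposited TPM. Malsu1, an assembly factor that binds the large subunit, averaged 86.0 in casted and 43.6 in uncasted muscle (log2 fold change 0.97 ± 0.11, limma adjusted p = 9.382e-08), a larger rise than that of any of the 78 members. Among 17 translation factors 12 were lower and 1, the initiation factor Mtif3, higher (9 higher and 2 lower on the deposited TPM). Taco1, an activator of cytochrome c oxidase subunit 1 translation, had a log2 fold change of -1.16 and Tufm, the elongation factor Tu, one of -0.44. Of 17 mitochondrial aminoacyl-tRNA synthetases 6 were lower and 3 higher (0 and 10 on the deposited TPM).

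The calls were more one-sided in 2 larger groups of genes, the partners of the mitochondrial ribosome's products and the proteins of the cytosolic ribosome. Of 75 nuclear genes for oxidative phosphorylation subunits 74 were lower and 0 higher, with a median log2 fold change of -0.67 (40 lower and 4 higher on the deposited TPM, median -0.16). Of 77 cytosolic ribosomal protein genes 60 were higher and 0 lower, with a median of 0.41 (77 higher on the deposited TPM, median 0.92); pseudogenes make single values of that family uncertain. The mitochondrial ribosomal protein median of -0.13 lay between them, and that place was not tested. Among regulators known for such genes, Esrra (log2 fold change -1.06) and the coactivator gene Ppargc1a (-0.67) were lower, and Nrf1 (0.40), Yy1 (0.26) and Myc (1.76) higher. Gabpa did not pass on the scaled values (0.09), and on the deposited TPM Ppargc1a was not called (-0.18) while Gabpa was called higher (0.57).

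The promoters of the members were examined because factors such as NRF1, ETS family proteins and YY1 are known to act on many genes of this kind. A RefSeq window (GRCm38.p6) reaching 250 bases before and 50 bases after the start was matched for 69 of 78 members and for 17492 protein-coding genes in all, and both strands were searched. GCATGCGC, a core of the NRF1 motif, was in 11.6% of member windows and 3.6% of all windows. CCGGAAGT, an ETS type motif, was in 15.9% and 5.3%, and AAGATGGCG, a YY1 core, in 11.6% and 1.9%. TATAAA was in 5.8% and 13.3%. By subunit, the NRF1 core was in 7 of 43 large-subunit windows (16.3%) and 1 of 26 small-subunit windows (3.8%). The ETS type motif was in 7 and 4 of the same windows, the YY1 core in 4 and 4 and TATAAA in 2 and 2. By call with casting on the scaled values, it was in 3 of 10 windows of members that were higher, 1 of 30 that were lower and 4 of 29 that did not pass. The YY1 core was in 2 of 10, 4 of 30 and 2 of 29 of the same sets, the ETS type motif in 1 of 10, 5 of 30 and 5 of 29, and TATAAA in 0 of 10, 2 of 30 and 2 of 29. A match describes letters and not binding, and these counts were not tested.

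To show what surrounds the NRF1 core in members of opposite direction, 30 bases around 1 core each are given for the 3 members that were higher and the 1 that was lower, with the core or its reverse complement in capitals, 5′ to 3′ on the gene's strand. In the order listed, the rises lie at chr7:105811080-105811109 (minus strand, 11 bases before the start of Mrpl17), chr13:14613041-14613070 (minus strand, 22 bases before the start of Mrpl32) and chr17:35916645-35916674 (minus strand, 223 bases before the start of Mrps18b). Mrpl32 has 4 such cores in its window, 2 of which overlap, and Mrps18b has another 28 bases after the start. Mrpl39, lower on the scaled values only, has 2 overlapping cores, 125 and 123 bases before the start, and the second is shown (chr16:84735349-84735378, minus strand). The starts are those of the RefSeq windows. GENCODE, the annotation used for the symbols, begins Mrpl17, Mrpl32 and Mrpl39 further upstream, so their cores shown here lie within those gene spans. The 4 stretches were chosen for these letters, so the core they share is no finding.
Mrpl17: gccgagttactGCGCATGCgtcctctgaga
Mrpl32: gcggacttaacGCATGCGCtcagcccgcgt
Mrps18b: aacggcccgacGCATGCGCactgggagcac
Mrpl39: aggagaggcgcGCATGCGCccccgcgtggc

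YY1 cores likewise stood in members of either direction. Those of Mrps18a (chr17:46111005-46111034, plus strand) and Mrpl35 (chr6:71823742-71823771, minus strand), which were higher with casting, began 11 and 23 bases after the start. That of Mrpl42 (chr10:95501903-95501932, minus strand) began 27 bases after it, and that of Mrps11 (chr7:78783013-78783042, plus strand) 108 bases before it as the reverse complement, and both of these genes were lower on both scales.
Mrps18a: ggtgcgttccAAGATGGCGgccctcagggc
Mrpl35: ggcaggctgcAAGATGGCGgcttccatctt
Mrpl42: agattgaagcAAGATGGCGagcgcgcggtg
Mrps11: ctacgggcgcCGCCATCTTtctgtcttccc

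The 150 bases just before the start are shown for Mrps36, Mrpl42 and Mrpl34, 3 of the 6 members that fell on both scales, and for Mrps2, which rose, since no annotated exon lies in these stretches. None of the 4 stretches holds the NRF1, ETS or YY1 letters searched. They lie at chr13:100744660-100744809 on the minus strand, chr10:95501950-95502099 on the minus strand, chr8:71464776-71464925 on the plus strand and chr2:28467916-28468065 on the plus strand.
Mrps36: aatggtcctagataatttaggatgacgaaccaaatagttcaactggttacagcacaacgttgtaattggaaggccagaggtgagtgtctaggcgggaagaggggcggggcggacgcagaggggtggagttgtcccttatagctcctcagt
Mrpl42: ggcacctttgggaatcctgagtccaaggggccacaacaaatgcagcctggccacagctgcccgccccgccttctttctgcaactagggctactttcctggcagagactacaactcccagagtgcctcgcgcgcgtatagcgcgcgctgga
Mrpl34: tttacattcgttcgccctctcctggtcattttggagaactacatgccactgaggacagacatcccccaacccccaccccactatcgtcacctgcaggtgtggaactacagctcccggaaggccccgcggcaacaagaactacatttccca
Mrps2: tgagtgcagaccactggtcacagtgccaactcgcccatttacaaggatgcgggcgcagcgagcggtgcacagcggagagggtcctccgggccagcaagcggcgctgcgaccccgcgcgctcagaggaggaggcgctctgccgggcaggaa

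The second comparison asks what MOTS-c did in casted muscle. No mitochondrial ribosomal protein gene was called, on the scaled or the deposited values, where limma called 3 of all genes tested (0.0204%) on the scaled and 8 (0.0545%) on the deposited values. At an unadjusted p under 0.05 there were 7 of 78 members, beside 1986 of all 14690 genes. On the deposited TPM there were 15 members, beside 2371 of all genes. Single libraries moved these counts: 63 genes were called and 13 members had an unadjusted p under 0.05 without casted replicate 1, 26 and 13 without MOTS-c replicate 8, and 0 and 3 without casted replicate 7. Without MOTS-c replicate 5, the library that stood apart, they were 0 and 4. Over all 24 libraries left out in turn, 0 to 63 genes and 3 to 13 members were so counted, and no member was called. Median log2 fold changes were -0.02 for large and -0.07 for small subunit members, and single members ranged from -0.22 to 0.27. Over all 78 members the 95% intervals reached from -0.43 to 0.47, so that a change of more than about that size was outside the interval of every member.

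The largest positive difference was that of Mrps21, a small bacterial-type protein of the small subunit. Its scaled TPM were 196, 214 and 256 (lowest, median, highest) in casted with MOTS-c, 146, 190 and 243 in casted and 230, 244 and 318 in uncasted libraries. The groups with a cast overlapped, and the log2 fold change of MOTS-c was 0.27 ± 0.10 (limma adjusted p = 0.2567). Mrps36 followed, with 46.2 ± 6.74 scaled TPM in casted with MOTS-c and 39.5 ± 7.48 in casted libraries (log2 fold change 0.23, limma adjusted p = 0.3478), and then Mrpl52, at 38.1 ± 3.66 and 34.2 ± 5.81 (log2 fold change 0.16, limma adjusted p = 0.5051). The largest negative differences were those of Mrpl57 (48.1 ± 7.72 in casted with MOTS-c and 56.1 ± 8.11 in casted libraries, log2 fold change -0.22, limma adjusted p = 0.3343), Mrpl17 (-0.20, limma adjusted p = 0.331) and Mrps18a (-0.20, limma adjusted p = 0.2588). Since this comparison and that of casting share the casted libraries, high or low values of those libraries push both in opposite ways.

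The outcome rested on which casted libraries were used. Against casted replicates 5 to 8 alone, 6 of 78 members were called for MOTS-c, where 678 of all 14690 genes were called higher and 838 lower. The share of members called was thus no larger than that of all genes. Mrps21 (0.50) and Mrps36 (0.45) were higher and Mrpl38 (-0.31), Mrps18a (-0.26), Mrpl9 (-0.25) and Mrps27 (-0.24) lower. Against casted replicates 1 to 4 alone, 0 members were called, with log2 fold changes of 0.04 for Mrps21 and 0.00 for Mrps36, 1 gene of all was higher and 1 lower. For casting itself, Mrps36 had a log2 fold change of -0.82 with casted replicates 1 to 4 and -1.26 with 5 to 8. The labels give no batch that separates these replicates.

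The third comparison sets casted muscle with MOTS-c against uncasted muscle, and shares the uncasted libraries with the first. There were 8 members higher and 36 lower, where 26% of all genes were higher and 24.7% lower, with a median log2 fold change of -0.18 (51 higher and 7 lower on the deposited TPM, median 0.25, where 60% of all genes were higher and 6.94% lower). By symbol 4 large-subunit members were higher and 25 lower, and 4 small-subunit members were higher and 11 lower. Mrps36 had a log2 fold change of -0.81 (limma adjusted p = 6.336e-07), Mrpl18 of -0.73 and Mrpl28 of -0.72. Mrps30 had one of 0.59 (limma adjusted p = 1.88e-05), Mrps18c of 0.48 and Mrpl32 of 0.47. All 8 libraries with MOTS-c lay below all uncasted ones for 17 members (21.8%), where 8.15% of all genes did so, and above them for 0 members, where 7.26% of all genes did so. Without replicate 5 of casted with MOTS-c these were 19 members (11.4% of all genes) and 2 members (12.1%), Mrps30 and Mrpl32, and 4 large-subunit members were called higher and 24 lower, and 4 small-subunit members higher and 11 lower. Mrps18a, at 64.9 ± 6.68 scaled TPM in casted with MOTS-c and 60.2 ± 5.40 in uncasted libraries, did not pass (log2 fold change 0.10, limma adjusted p = 0.2259; 0.54 and called on the deposited TPM).

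Some values may hold reads of near-copies, since the sources used here do not say how such reads were divided. A processed pseudogene with at least 90% identity was listed at 45.6% of the TPM of Mrps33, at 32% for Mrpl23 and at 13.7% for Mrpl48. With these TPM added the log2 fold changes of casting were -0.29, 0.15 and -0.43 for the 3 genes, and the calls were as before, lower for Mrps33 and Mrpl48 and not passed for Mrpl23. In casted with MOTS-c against uncasted muscle, Mrps33 lost its call, with a log2 fold change of -0.19 (limma adjusted p = 0.06059) in place of -0.32.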

How the data were processed

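The members and lists were chosen with earlier results of these data known. The deposited values are TPM per gene, 1 table for each library. The submitters' processing notes list STAR, RSEM, DESeq2 and FastQC and the build GRCm38.p6, without versions. Per the labels, RNA came from frozen muscle and the library kit selected poly-adenylated RNA. Depth per library is unknown, because TPM have a fixed total; 19832 to 21755 genes had a TPM above 0. The study's design text gives an age of 10 weeks when the mice were obtained.

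Symbols came from GENCODE M21, of the same build (55141 identifiers matched); 5 pseudogene symbols were left out. TPM were scaled by an unweighted trimmed mean of log ratios (30% of ratios and 5% of levels trimmed). Genes that reached a TPM of 0.5 in 8 or more libraries were tested with limma 3.58.1 in R 4.3.3 (mean-variance trend, 3 group means, two-sided, Benjamini-Hochberg over 14690 genes, threshold 0.05) on log2(scaled TPM + 1), which understates the change of low genes. The script was tested on simulated data. A score over the members was given no test. Named members are the 8 largest rises and falls with casting past the threshold, the 3 largest differences each way with MOTS-c, the 3 highest and 3 lowest levels in uncasted muscle and 15 fixed members; others named were chosen after their values were seen. Near-copies were found with blastn 2.17.0 (90% identity over 80% of the copy). Any 2 libraries had equal values for 1.34% of tested genes or fewer. Other scalings, filters, pseudocounts and sample sets, and each library left out, were tried.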

Additional observations from a re-analysis of the deposited data

Results flagged for a closer look

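In 105 sets of 8 libraries (a member or a summed measure in a group), 11 had a highest or lowest library set far from the other 7; chance alone flags about 1 in 20. In casted muscle with MOTS-c, replicate 5 had 14.82 scaled TPM of Mrps11, with the next library at 11.96; that library lay towards uncasted muscle over all genes (first principal component -17.81, against 13.71 to 29.60 in the other 7). In casted muscle, Mrpl57 stood at 73.39 in replicate 7 (next 60.27), Mrpl28 at 31.16 in replicate 4 (next 24.77), Mrpl58 at 30.95 in replicate 6 (next 36.80) and Mrpl41 at 20.93 in replicate 1 (next 28.19).

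The other 6 were all the highest value of uncasted replicate 8. They were Mrps18c (66.34 scaled TPM, next 52.09), Mrps18a (71.58, next 61.54), Mrpl12 (96.07, next 79.04) and Mrps21 (318.3, next 264.6), the mean log2 level of small-subunit members (5.529, next 5.359) and their summed scaled TPM (1664, next 1457). The scaling factor of uncasted replicate 8 was 0.73, the lowest of all libraries, against 0.77 to 0.85 for the other uncasted ones. A low factor raises every scaled value of a library, so these 6 flags are not independent. Without that library the log2 fold change of Mrpl12 with casting was -0.66 and 7 large-subunit members were called higher in place of 4.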

How the results depend on the processing

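Median-of-ratios scaling, a pseudocount of 0.1, a TPM minimum of 1, no filter, fits of only 2 groups, a robust fit without trend and added near-copies kept the counts of members called within 1.5 times of those reported. On the deposited TPM, unscaled, casting gave 36 large-subunit members higher and 4 lower and 22 small-subunit members higher and 2 lower, and MOTS-c in casted against uncasted muscle gave 30 and 4, and 21 and 3. Of all genes 62.2% were higher and 7.43% lower in the first and 60% and 6.94% in the second of these comparisons on that scale. There these named members changed sign with casting: Mrps21 (0.064), Mrpl52 (0.38), Mrpl30 (0.21), Mrpl39 (0.153), Mrpl58 (0.309), Mrps5 (0.333), Mrps6 (0.398), Mrpl44 (0.415) and Mrpl45 (0.238). With only casted replicates 1 to 4, 4 small-subunit members were higher with casting; with only 5 to 8, 8 large-subunit members were higher, and for MOTS-c in casted muscle 6 members were called (2 large-subunit lower, 2 small-subunit higher, 2 small-subunit lower). The cause was not tested. The casted minus uncasted difference in the large minus small subunit level was 0.02 as a median over members and -0.075 as a mean, a form chosen after seeing the data.

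Leaving out each library in turn gave 43 to 47 members called with casting (large-subunit 4 to 8 higher and 22 to 23 lower, small-subunit 7 to 8 higher and 9 to 12 lower), 0 to 0 with MOTS-c in casted muscle, and 42 to 45 for MOTS-c in casted against uncasted muscle (large 4 to 4 and 23 to 26, small 3 to 4 and 11 to 12). Large-subunit rises numbered 8 without casted replicate 1 and 7 without uncasted replicate 8. The median difference above ranged from 0.002 to 0.034. Mrps5 lost its call with casting without uncasted replicates 3, 4, 7 or 8 or casted replicates 1, 6 or 7, Mrpl41 gained one without casted replicate 1, and Mrps18b lost its call against uncasted muscle without uncasted replicate 4 or MOTS-c replicates 7 or 8.

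With a block for the replicate number, 45, 0 and 46 members were called in the 3 comparisons. For MOTS-c in casted muscle limma then called 13 of all genes higher and 5 lower, in place of 2 and 1. There 10 members had an unadjusted p under 0.05, in place of 7. Same-numbered libraries deviated together at a correlation over 0.1 in 6 of 24 pairs (range -0.245 to 0.371). For 8 of the 24 libraries the best match in another group had their number. The numbers were not taken to pair the mice, and whether they do was not tested. Depth is unknown, so what it limits cannot be stated.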
